A study of Mus musculus with 40 samples.

Results

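Gfap encodes glial fibrillary acidic protein, the intermediate filament of astrocytes. Among 19 mouse gliomas ranked by their Gfap signal, the 6 highest (Gfap-high gliomas) were set against the 6 lowest (Gfap-low gliomas). The members were selected on Gfap itself, so its level is described without a test and the gene was left out of every count. The 2 sides hold 12 of the 40 arrays of the series, and 7 ranked gliomas lie between them. The comparison asks which other genes went with the Gfap level of a tumor.

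The tumors are end-stage malignant gliomas of p53CKO mice of mixed genetic background and both sexes, taken at end stage, with no ages in the labels. In the p53R172H CKO mice (hGFAP-cre+;p53LSLR172H/floxE2-10) cells carry 1 R172H missense allele and 1 deleted p53 allele after recombination, and in the p53null CKO mice (hGFAP-cre+;p53floxE2-10/floxE2-10) both alleles are deleted. All gliomas on both sides therefore carry hGFAP-cre, a Cre recombinase driven by the human GFAP promoter and active in neural cells, and neither genotype keeps a wild-type p53 allele after recombination. The Gfap-high side holds 2 R172H gliomas and 4 null gliomas, and the Gfap-low side 5 R172H gliomas and 1 null glioma, so side and genotype overlap in part. Cell lines from R172H gliomas (11), cell lines from early R172H biopsies (2), 3 other gliomas that the rule leaves out and 5 control cortices, of which 3 were hGFAP-cre+ with p53floxE2-10/+ and 2 lacked Cre with p53floxE5-6/floxE5-6, serve here as levels to read the tumors by. Tumors are named by array number. The labels give no batch, no date and no second array of a tumor, so a p-value here covers the spread among these arrays, which need not all be biological. Array numbers follow genotype, and any effect of array order cannot be told apart from it.

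Astrocytes build their cytoskeleton from Gfap, vimentin, nestin and synemin, and raise Gfap when they become reactive after injury or inflammation. Cytokines of the interleukin-6 family, such as leukemia inhibitory factor and oncostatin M, signal through receptors that share the gp130 subunit to the kinases JAK1 and JAK2 and the transcription factor STAT3, which can bind the Gfap promoter, and Socs3 is the feedback inhibitor of this pathway. During development, nuclear factor I proteins and Sox9 prepare astrocyte genes for expression, while Olig2 and Nkx2-2 mark the oligodendrocyte lineage, to which many gliomas with Pdgfra expression are close.

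Stretches of the Gfap and Socs3 promoters are shown because Gfap set the sides and Socs3, a target of STAT3, is the gene of its pathway whose promoter window holds the same kind of match. Capitals mark matches to TTCNNNGAA, the letters STAT proteins recognise, which read the same on both strands. The Gfap stretch lies on chr11:102897181-102897260 of GRCm38.p6 on the minus strand and ends 20 bases after the RefSeq start, and the Socs3 stretch lies on chr11:117969457-117969556 on the minus strand upstream of its start. Both are RefSeq sequence.
Gfap: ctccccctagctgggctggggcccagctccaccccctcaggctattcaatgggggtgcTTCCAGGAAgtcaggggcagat
Socs3: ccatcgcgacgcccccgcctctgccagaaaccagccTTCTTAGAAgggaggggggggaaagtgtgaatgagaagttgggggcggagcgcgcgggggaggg
The Gfap match begins 2 bases before the start and the Socs3 match 154 bases before it. Of 14451 tested genes with a RefSeq window (250 bases before to 50 bases after a start), 1238 (8.57%) held such a match. Of the 20 genes of the STAT3 and gp130 list with a window, Socs3 was the 1 with a match (5%). Of the 12 genes with the lowest p in each direction named below, 0 of 9 higher ones and 2 of 8 lower ones (Snx25 and Zfp772) held a match. A match is a match of letters and not a measured binding site.

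Values are log2 signals of 1 probe set a gene, so a difference of 1 is a doubling of the signal. Gfap ranged from 10.84 to 11.49 on the Gfap-high side, with glioma 64 (R172H) at 11.49 and gliomas 45, 37 and 38 (all null) at 11.30, 11.06 and 11.05. Glioma 60 (R172H) had 10.94 and glioma 43 (null) 10.84. On the Gfap-low side gliomas 62 and 48 (R172H) had 8.77 and 8.41, glioma 39 (null) 8.37, and gliomas 52, 54 and 46 (R172H) 6.68, 6.42 and 6.25. The last 3 stood apart from the other tumors of the ranking. The values just inside the rule were 10.84 (glioma 43) and 8.77 (glioma 62), and those just outside were 10.65 (glioma 67) and 9.07 (glioma 56). Control cortices had Gfap at 7.41 to 8.76, so every Gfap-high glioma was above every cortex. The 11 R172H glioma lines had 4.35 to 9.17. Another Gfap probe set gave the same sides over the 19 gliomas, and 1 more shared 4 of the 6 Gfap-high and 5 of the 6 Gfap-low gliomas.

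**Figure D1:**
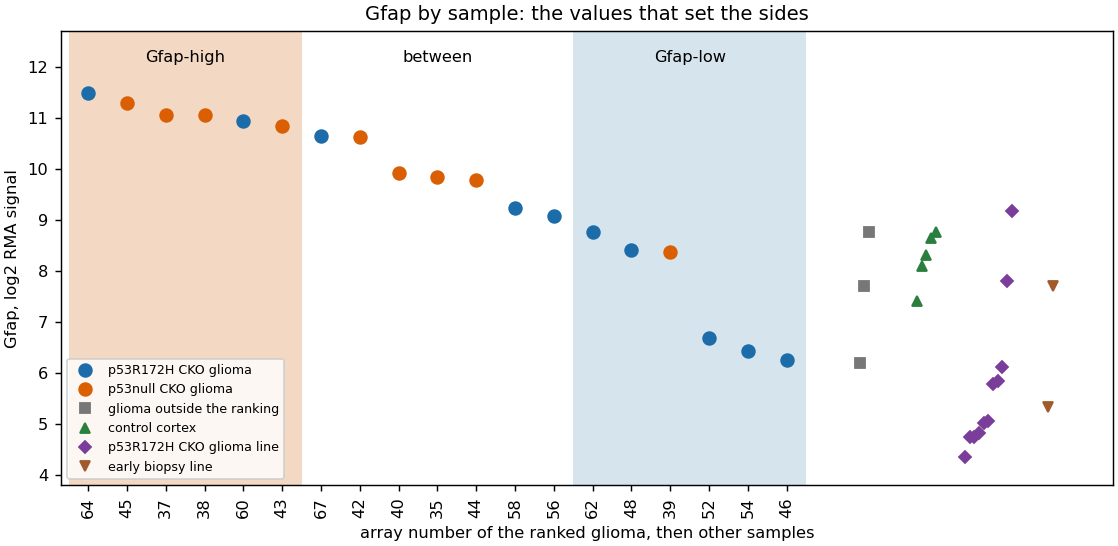
Gfap log2 signal (vertical axis) of the 19 ranked gliomas in order, coloured by genotype, with the Gfap-high and Gfap-low sides shaded, and of the other samples at the right. The Gfap-high side runs from 11.49 to 10.84 and the Gfap-low side from 8.77 to 6.25, with gliomas 52, 54 and 46 below 7.

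With 6 tumors a side, no gene passed the limma test at a Benjamini-Hochberg adjusted p under 0.05 in either direction among 18192 genes (0% higher and 0% lower), the lowest adjusted p being 0.191. At an unadjusted p under 0.05, 684 genes had higher values in Gfap-high gliomas (3.76%) and 797 lower values (4.38%). With cyclic loess scaling these counts were 906 and 497, so 46.2% of these genes were higher in the deposited scaling and 64.6% with cyclic loess. A fit that took its spread from all 40 arrays called 3 genes higher (Osmr, Hpgd and Sox7), and a ranking of all 22 gliomas called 3 (Ret, Eva1a and Ptdss2). The median difference of all genes was -0.02, and 45.9% of genes had a difference above 0. For 33 genes (0.181%) every Gfap-high glioma was above every Gfap-low glioma, and for 29 genes (0.159%) below. The genes named next are those with the lowest p among them, 12 in each direction, and are given as values. In bulk tissue, fewer cells of a type and less RNA per cell cannot be told apart.

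The receptor Osmr and the receptor tyrosine kinase Ret had the lowest p of all genes. Osmr, the oncostatin M receptor chain that pairs with gp130, had 7.91, 10.07, 7.87, 9.49, 9.99 and 8.85 in Gfap-high gliomas 64, 45, 37, 38, 60 and 43, against 6.69, 6.59, 5.92, 6.55, 6.14 and 5.46 in Gfap-low gliomas 62, 48, 39, 52, 54 and 46. The sides did not overlap, and gliomas 45 and 60 were the highest. The mean was 9.03 ± 0.98 in Gfap-high and 6.22 ± 0.48 in Gfap-low gliomas (SD, n = 6 each), a difference of 2.81 (SE 0.42, limma adjusted p = 0.191). Cortices had Osmr at 6.07 to 6.54 and the lines a median of 4.41, both within or below the Gfap-low range. Ret, a receptor for ligands of the GDNF family, had 6.53, 5.80, 6.98, 7.04, 8.08 and 6.72 in the same Gfap-high gliomas, against 4.77, 5.12, 3.98, 3.90, 3.57 and 4.24 in the Gfap-low gliomas. Its difference was 2.59 (SE 0.36, limma adjusted p = 0.191), and the sides did not overlap. Glioma 67, which lies just outside the Gfap-high side, had the highest Ret among the 19 ranked tumors at 9.14. The median of an array lay between 5.24 and 5.47, so every Gfap-low value of Ret was below the median of any array.

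Egfr, the epidermal growth factor receptor, also separated the sides. Its lowest, median and highest values were 5.38, 6.63 and 8.68 in Gfap-high gliomas, against 3.65, 4.47 and 5.26 in Gfap-low gliomas, a difference of 2.28 (SE 0.49, limma adjusted p = 0.569). The 7 gliomas between the sides had 5.70 to 8.75, all above the Gfap-low gliomas, and the glioma lines had a median of 8.95. Cortex had 6.93 to 7.43, so the Gfap-low gliomas were below every cortex and every other ranked tumor. Nr2e1, a nuclear receptor of neural stem cells, showed the same arrangement with 4.88, 5.78 and 6.20 in Gfap-high gliomas, against 3.90, 4.09 and 4.73 in Gfap-low gliomas and 5.11 to 6.21 between the sides, with a difference of 1.43 (SE 0.24, limma adjusted p = 0.314).

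Hpgd, which degrades prostaglandins, had the largest difference among these genes. Its values were 7.08, 8.24 and 10.30 (lowest, median and highest) in Gfap-high gliomas, against 3.49, 5.60 and 6.30 in Gfap-low gliomas, with a difference of 3.09 (SE 0.61, limma adjusted p = 0.494). Ptgs2, the inducible enzyme of prostaglandin synthesis, had 3.91, 7.40 and 11.51 in Gfap-high gliomas, against 4.05, 5.34 and 6.39 in Gfap-low gliomas, and here the sides overlapped because glioma 64 had the lowest value of all 12. Cebpd, a transcription factor of the acute-phase and mesenchymal response, had 9.54, 10.27 and 11.39 in Gfap-high gliomas, against 8.41, 8.82 and 9.25 in Gfap-low gliomas and 6.14 to 6.93 in cortex. Its difference was 1.49 (SE 0.29, limma adjusted p = 0.494).

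The other 6 genes of this group had differences between 1.08 and 1.64. They were Trp53inp2, an autophagy factor (1.15), Gem, a small GTPase (1.64), Pard3b, a polarity protein (1.19), Kank2, an actin regulator (1.08), Slc9a3r1, a scaffold that ties membrane transporters to ezrin (1.43), and Cflar, the inhibitor of caspase-8 activation (1.12). Gem had 7.15, 7.23 and 7.65 (lowest, median and highest) in Gfap-high gliomas, against 4.32, 5.91 and 6.21 in the Gfap-low gliomas. Cflar lay within 8.20 to 8.47 in Gfap-high gliomas, against 6.40 to 7.82 in Gfap-low gliomas. Ezr, which encodes ezrin itself, had 8.94 to 11.51 in Gfap-high and 7.93 to 8.88 in Gfap-low gliomas, also without overlap.

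**Figure D2:**
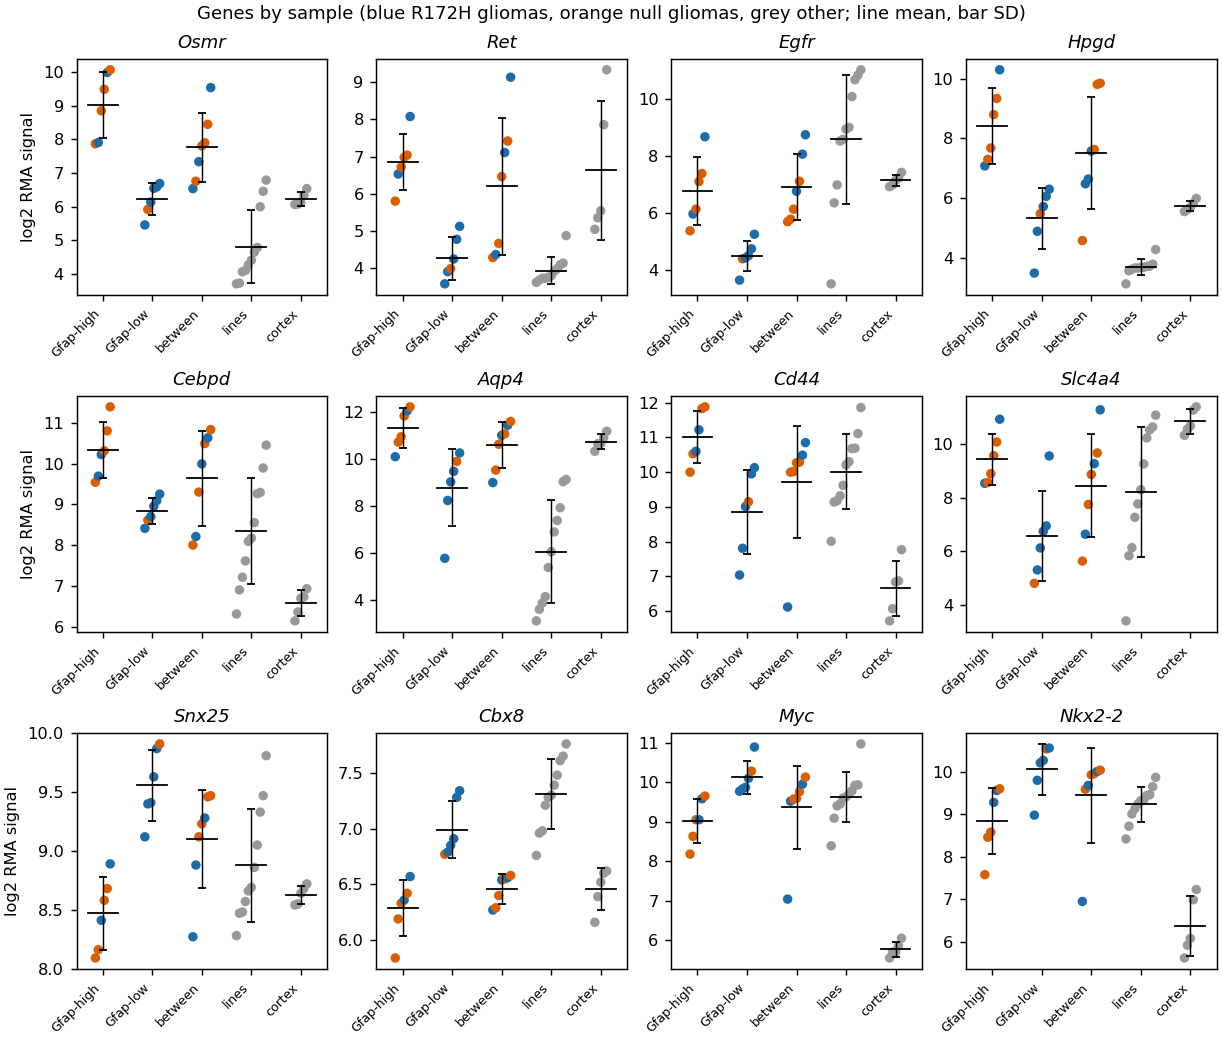
Log2 signal (vertical axes) of 12 genes in the Gfap-high gliomas, the Gfap-low gliomas, the 7 gliomas between them, the 11 R172H glioma lines and the 5 cortices; points are samples, lines the mean and bars the SD. Osmr, Ret, Egfr, Hpgd and Cebpd had no overlap between the sides upward, and Snx25, Cbx8 and Myc none downward, while Aqp4, Cd44, Slc4a4 and Nkx2-2 overlapped.

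Downward, the differences were smaller. Snx25, a sorting nexin of endosomal traffic, had 8.09, 8.50 and 8.89 in Gfap-high gliomas, against 9.12, 9.52 and 9.91 in Gfap-low gliomas, a difference of -1.09 (SE 0.18, limma adjusted p = 0.314). Myc, the transcription factor that drives growth and proliferation, had 8.18, 9.05 and 9.65, against 9.77, 9.99 and 10.89, with a difference of -1.10 (SE 0.27, limma adjusted p = 0.569). Both sides were far above the cortices, which had Myc at 5.55 to 6.05. Cbx8, a subunit of the Polycomb repressive complex, had 5.84, 6.34 and 6.57 in Gfap-high gliomas, against 6.77, 6.88 and 7.34 in Gfap-low gliomas, and the glioma lines had a median of 7.30. Spry3, a Sprouty inhibitor of receptor tyrosine kinase signalling, had a difference of -0.97, and S100pbp, which encodes a binding partner of the S100P protein, one of -0.75. The remaining 7 of the 12 were Zfp59 and Zfp772, both zinc finger genes (-0.65 and -0.87), Eral1 and Slc25a26, which serve the mitochondrial ribosome and methyl donor import (-0.52 and -0.59), Tyw3, a tRNA-modifying enzyme (-0.65), Rimbp3 (-0.62) and 4930570G19Rik (-1.20).

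When the Gfap signal of all 19 tumors was used as a slope in place of the 2 sides, 9 genes rose with Gfap (0.0495% of genes) and 9 fell (0.0495%) at an adjusted p under 0.05 in limma. The genes that rose were Pard3b, Cflar, Osmr, Sdc4, Trim47, Ppp1r3c, Aqp4, Daam2 and Fam167a. Osmr rose by 0.70 (SE 0.11) for each log2 unit of Gfap, with an adjusted p of 0.0156. Aqp4, the water channel of astrocyte endfeet, rose by 0.74 (SE 0.13, adjusted p = 0.0319), Ppp1r3c, which directs glycogen synthesis, by 0.59 (SE 0.10, adjusted p = 0.0232) and Sdc4, a cell-surface proteoglycan, by 0.50 (SE 0.08, adjusted p = 0.0156). Daam2, a formin of the Wnt pathway, rose by 0.43 (SE 0.08, adjusted p = 0.0342). The genes that fell were Zfp93, Dnajb3, Coil, Cbx8, Sh3bp5l, Zfp830, 2310033P09Rik, Spin2c and Tmem69, of which Dnajb3, a co-chaperone gene, had the steepest slope at -0.42 (SE 0.07, adjusted p = 0.0156). Of these 9, 5 lie on chromosome 11 (Coil, Cbx8, Sh3bp5l, Zfp830 and 2310033P09Rik), which holds 1442 of the 18029 genes with a known chromosome.

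The number of calls changed with the tumors in the fit. Without gliomas 46, 52 and 54, which hold the lowest Gfap, no gene passed in either direction, with 362 genes of positive and 306 of negative slope at an unadjusted p under 0.05, and Osmr had the lowest adjusted p at 0.446. In that fit the slope of Osmr was 1.02, that of Cflar 0.33, that of Pard3b 0.31 and that of Tmem69 -0.24, while those of Aqp4 and Coil were 0.52 and -0.13. Without glioma 46 alone no gene passed, without glioma 52 alone 4 genes rose and 1 fell, and without glioma 54 alone 1 gene passed in each direction. Without glioma 64 alone 14 genes rose. The count of genes that fell was 3 to 5 without glioma 38, 39, 45 or 48 alone and 15 to 17 without glioma 37, 58 or 60 alone. With genotype as a term in the fit no gene passed, the lowest adjusted p being 0.123, with 518 positive and 1088 negative slopes at an unadjusted p under 0.05 in limma. The slopes themselves were close to those without the term, at 0.73 for Osmr, 0.70 for Aqp4, 0.30 for Pard3b and -0.28 for Zfp93. Pard3b passed in 18 of the 19 fits that each left out 1 tumor, and Osmr, Cflar, Sdc4 and Zfp93 in 17. Daam2 and Fam167a passed in 5.

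The astrocyte genes were the first group read against these sides. Of 37 measured genes of mature astrocytes, 34 had a difference above 0, against 45.9% of all genes. Among the 37, 12 had an unadjusted p under 0.05, all higher, against 3.76% of all genes. The median difference was 0.75. Aqp4 had 10.10, 11.39 and 12.22 (lowest, median and highest) in Gfap-high gliomas, against 5.78, 9.25 and 10.26 in Gfap-low gliomas, so the sides overlapped only through gliomas 64 and 48. Its difference was 2.53 (SE 0.69, limma adjusted p = 0.569), and glioma 54 held the lowest value. Slc4a4, a sodium bicarbonate cotransporter, had 8.53, 9.22 and 10.92, against 4.80, 6.43 and 9.55, with a difference of 2.84 (SE 0.72). Slc1a3 and Slc1a2, the glutamate transporters of astrocytes, had differences of 0.88 and 1.93, Mlc1, a membrane protein of astrocyte endfeet, 2.03, and Clu, the secreted chaperone clusterin, 1.21. Aldh1l1 and S100b, which are used as astrocyte markers, did not separate the sides. Aldh1l1 had 5.44 to 10.04 in Gfap-high and 5.28 to 8.15 in Gfap-low gliomas, and S100b had medians of 10.56 and 11.42, with a difference of -0.08 (SE 0.69) that was 0.04 with cyclic loess.

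Genes for water, ion and metabolite transport had a median difference of 0.97, with 18 of 19 above 0, against 45.9% of all genes. At an unadjusted p under 0.05, 8 were higher and 1 was lower, against 3.76% and 4.38% of all genes. The lower gene was Slc12a2, a chloride cotransporter (-0.84). The filament and cytoskeleton genes had a median of 0.32, with 10 of 11 above 0, which was 0.19 without glioma 45, 0.63 without glioma 54, 0.08 with genotype as a term and 0.04 within R172H gliomas. Vim, the vimentin gene, had 11.87, 13.01 and 13.26 in Gfap-high gliomas, against 11.15, 12.73 and 13.37 in Gfap-low gliomas (difference 0.25, SE 0.35), and both were far above cortex at 8.89 to 9.47. Synm, which encodes synemin, had a difference of 1.38 (SE 0.55). The sides overlapped in Vim, and its difference was -0.02 within R172H gliomas.

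Reactive astrocyte genes had the highest median difference of the lists, next to the neuron list below. Of the 12 genes shared by astrocyte responses to injury and inflammation, 11 were above 0, against 45.9% of all genes. Their median was 1.48, and 6 had an unadjusted p under 0.05, all higher, against 3.76% of all genes. Besides Osmr they included Cd44, the hyaluronan receptor, with 10.00, 10.91 and 11.88 (lowest, median and highest) in Gfap-high gliomas, against 7.04, 9.08 and 10.13 in Gfap-low gliomas (difference 2.16, SE 0.54, limma adjusted p = 0.569). Serpina3n, a secreted protease inhibitor, had 10.86, 11.38 and 12.23, against 8.29, 10.21 and 11.05 (difference 1.45, SE 0.43). The injury-type list had a median of 0.73 with 11 of 12 above 0, and the inflammation-type list 0.42 with all 9 measured members above 0 and none at an unadjusted p under 0.05. The inflammation-type median was 0.21 without glioma 54, 0.63 without glioma 64 and 0.12 within R172H gliomas. Cd44 and the shared list had low levels in cortex, at a median of 6.84 for Cd44 and a mean over the list of 6.29 to 6.74, while Aqp4 and Slc4a4 had cortex medians of 10.66 and 10.67.

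In the interleukin-6 pathway, 18 of 23 measured genes were above 0 and 11 had an unadjusted p under 0.05, all higher, with a median of 0.43, against 45.9% of all genes above 0 and 3.76% higher at that p. Of the ligands, Lif had 4.57, 6.46 and 7.99 (lowest, median and highest) in Gfap-high gliomas, against 4.34, 4.86 and 5.77 in Gfap-low gliomas (difference 1.47, SE 0.49), and Il6 had 4.02, 4.75 and 8.17, against 3.31, 3.82 and 4.26 (difference 1.38, SE 0.60). The high Il6 value was that of glioma 45 alone. Of the receptors besides Osmr, Il6ra had a difference of 1.11, the shared subunit Il6st 0.67, Lifr 0.50 and Cntfr 0.43. Of the signalling chain, Jak1 had a difference of 0.72, and Stat3 itself had 9.92, 10.47 and 11.11 in Gfap-high gliomas, against 9.60, 10.05 and 10.60 in Gfap-low gliomas (difference 0.42, SE 0.23, limma adjusted p = 0.623). Of its target genes, Socs3 had 8.55, 10.06 and 10.92, against 7.99, 8.86 and 9.01 (difference 1.26, SE 0.34, limma adjusted p = 0.569), and Bcl3, a regulator of NF-kappaB, had a difference of 0.90. Both were lower in cortex, at medians of 6.03 for Socs3 and 4.74 for Bcl3.

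The developmental regulators of Gfap were mixed. Nfia had medians of 10.39 in Gfap-high and 10.23 in Gfap-low gliomas (difference -0.01, SE 0.30), and Sox9 8.41 and 8.35 (difference -0.23, SE 0.67), and the sign of both changed with the processing. Nfix had a difference of 0.68 (SE 0.21) and Zbtb20, a zinc finger factor of astrocyte development, 0.77 (SE 0.32), each at an unadjusted p under 0.05. Over the list of 12 such genes, 8 were above 0, against 45.9% of all genes. Nfix and Zbtb20 were the 2 of the list that were higher at that p, against 3.76% of all genes. The median of the list was 0.35, which was 0.14 without glioma 43 and 0.02 with 5 tumors a side. Notch genes had a median of -0.02 with 10 of 20 above 0, and BMP and TGF-beta genes 0.21 with 23 of 32 above 0, or 0.09 without glioma 43. At an unadjusted p under 0.05, 2 Notch genes and 4 BMP and TGF-beta genes were higher, against the same 3.76% of all genes.

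The oligodendrocyte progenitor list ran the other way, with 2 of 19 genes above 0, against 45.9% of all genes, and a median of -0.59. But its median was 0.68 with all 22 gliomas ranked and 0.07 within R172H gliomas. Ranking all 22 puts gliomas 41 and 50, which the rule leaves out, on the Gfap-low side (Gfap 7.70 and 6.20). Their means over the progenitor list were 8.67 and 6.25, against 8.64 to 11.49 in the 6 Gfap-low gliomas. Over neuroblast genes they were 8.46 and 10.37, against 6.47 to 8.05. The part of these tumors in the change was not tested. Nkx2-2 had 7.58, 8.93 and 9.60 (lowest, median and highest) in Gfap-high gliomas, against 8.98, 10.24 and 10.56 in Gfap-low gliomas (difference -1.21, SE 0.38, limma adjusted p = 0.577). Olig2 had 8.41, 10.37 and 11.13, against 10.52, 10.89 and 11.21 (difference -0.74, SE 0.39), and Pdgfra, the platelet-derived growth factor receptor, 10.29, 12.02 and 12.77, against 11.46, 12.62 and 13.81 (difference -0.78, SE 0.45). The sides overlapped in all 3, and with all 22 gliomas ranked the differences of Olig2 and Pdgfra were 0.71 and 0.06. The medians of both sides were above the cortices, which had Olig2 at 6.97 to 8.45 and Pdgfra at 9.55 to 9.90. Cell cycle genes had a median of -0.77, with 1 of 38 above 0, against 45.9% of all genes. At an unadjusted p under 0.05, 1 of them was lower, against 4.38% of all genes. Mki67, the proliferation marker, had 6.11, 8.85 and 10.70 in Gfap-high gliomas, against 8.49, 9.93 and 10.55 in Gfap-low gliomas (difference -1.01, SE 0.65), with cortex at 3.36 to 3.81. Without glioma 45 the medians of the progenitor and cell cycle lists were -0.13 and -0.28.

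**Figure D3:**
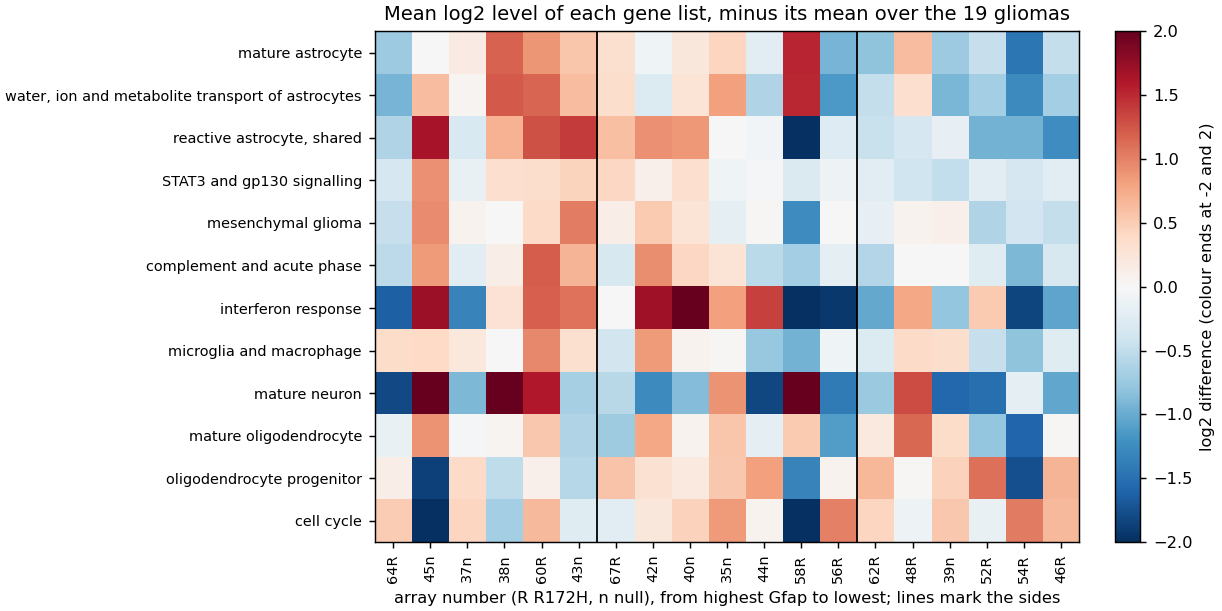
Mean log2 level of 12 gene lists (rows) in the 19 gliomas (columns, from highest to lowest Gfap), minus the mean of the list over the 19. Gliomas 45, 38 and 58 carry the highest neuron levels, gliomas 45 and 58 the lowest cell cycle levels, and glioma 64 is below the 19-tumor mean in astrocyte and reactive genes despite the highest Gfap.

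Markers of neurons moved with the sides as well. All 28 measured genes of mature neurons had a difference above 0, against 45.9% of all genes, with a median of 1.45. Of them 3 (Camk2a, Slc17a7 and Bdnf) were higher at an unadjusted p under 0.05, against 3.76% of all genes. Without glioma 38 the median was 0.87. The mean over the list was 10.56 in glioma 45, 10.72 in glioma 38 and 8.82 in glioma 60, but 5.41, 6.33 and 6.56 in the other Gfap-high gliomas 64, 37 and 43, against 5.65 to 8.53 in Gfap-low gliomas. Cortex had 10.98 to 11.48 and the lines 4.97 to 6.62, so 2 Gfap-high gliomas came close to cortex while others were near the lines. Glioma 58, between the sides, had 10.93. The mean over the cell cycle list was 6.40 in glioma 45, 8.39 in glioma 38 and 8.83 to 9.72 in the other Gfap-high gliomas, against 8.93 to 10.11 in the Gfap-low gliomas and 4.95 to 5.15 in cortex.

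Leaving out gliomas 38, 45 and 58 divided the lists. Glioma 58 lies between the sides, so only gliomas 38 and 45, both Gfap-high, left this fit. The medians of the neuron, progenitor and cell cycle lists were then 0.13, -0.13 and -0.05, and that of the mature oligodendrocyte list -0.11, against 0.40 with all 12 gliomas. The medians of the shared reactive list (1.21), the transport list (0.82), the mature astrocyte list (0.62) and the microglia list (0.70) stood beside 1.48, 0.97, 0.75 and 0.67 with all 12. The STAT3 and gp130 list had 0.24 without these tumors and the interferon list 0.31. In this setting too no gene passed, with 394 genes higher and 325 lower at an unadjusted p under 0.05 in limma.

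**Figure D4:**
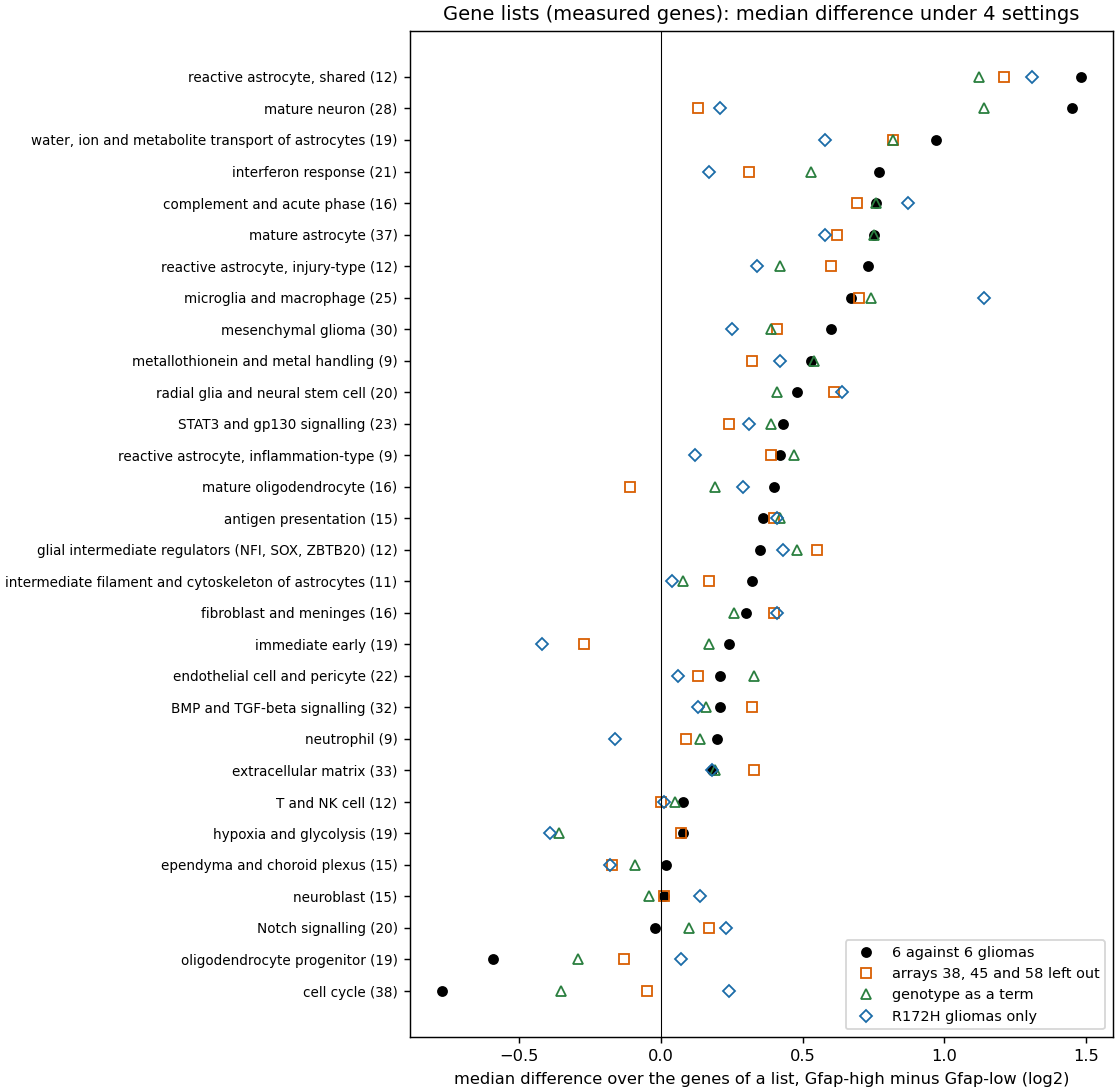
Median difference over the measured genes of each list (horizontal axis, log2, Gfap-high minus Gfap-low; number of genes in brackets) for the 12 gliomas, without gliomas 38, 45 and 58, with genotype as a term and within R172H gliomas. The shared reactive list lies between 1.12 and 1.48 in all 4. The neuron list runs from 0.13 to 1.45 and the cell cycle list from -0.77 to 0.24. Glioma 58 is on neither side, so only gliomas 38 and 45 left that fit.

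Microglia and macrophage genes had a median difference of 0.67, with 21 of 25 above 0 and 13 at an unadjusted p under 0.05, all higher, against 45.9% and 3.76% of all genes. The mean over the list was 8.85, 9.18 and 9.79 (lowest, median and highest) in Gfap-high gliomas, against 8.03, 8.57 and 9.21 in Gfap-low gliomas. It was 7.27 to 7.78 in cortex and 4.38 to 5.07 in the lines. Cx3cr1, the fractalkine receptor of microglia, had 8.30, 9.26 and 9.74 in Gfap-high gliomas, against 7.44, 8.25 and 8.66 in Gfap-low gliomas (difference 0.91, SE 0.28, limma adjusted p = 0.569). P2ry12, the purine receptor of resting microglia, had a difference of 1.32, Csf1r, the receptor that microglia need to survive, 1.03, and Itgam, the CD11b integrin chain, 1.80. The part of these cells in the other differences was not tested. Of the other cell types, endothelial cells and pericytes had a median of 0.21, fibroblasts and meninges 0.30, neutrophils 0.20, T and NK cells 0.08, ependyma and choroid plexus 0.02 and blood 0.01. The endothelial median was 0.46 without glioma 52, the fibroblast median 0.04 without glioma 54 and the neutrophil median 0.10 without glioma 45. The means over the T and NK cell list (3.97 to 4.28) and over the blood list (3.59 to 4.80) were at the dim end in all 12 gliomas.

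Inflammatory and mesenchymal lists had medians above 0. Interferon response genes had a median of 0.77 with 20 of 21 above 0, against 45.9% of all genes. Only 1 of them, Cxcl10, was higher at an unadjusted p under 0.05, near the share of all genes (3.76%). Without glioma 45 the median of these genes was 0.39. Their mean level was 7.30 and 7.60 in Gfap-high gliomas 64 and 37 and 9.22 to 10.65 in the other 4, against 7.10 to 9.71 in Gfap-low gliomas. Complement and acute phase genes had a median of 0.76, with 15 of 16 above 0. Mesenchymal glioma genes had 0.60, with 26 of 30 above 0 and 9 at an unadjusted p under 0.05, all higher. These counts stand against the same 45.9% and 3.76% of all genes. The mesenchymal median was 0.38 without glioma 45 and 0.25 within R172H gliomas. Metallothioneins, which bind zinc and copper, had differences of 0.88 (Mt1), 1.07 (Mt2) and 1.20 (Mt3), and Mt3 had 10.05, 11.01 and 11.23, against 8.63, 9.84 and 10.53. Cdkn1a, the cell cycle inhibitor p21 and a target of p53, had 9.22, 9.95 and 11.28 in Gfap-high gliomas, against 7.85, 9.12 and 10.20 in Gfap-low gliomas (difference 1.10, SE 0.42).

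Gfap alone did not place a tumor in these lists. Glioma 64 had the highest Gfap, yet its mean over mature astrocyte genes was 8.59 and over the shared reactive genes 8.13, within the Gfap-low ranges of 7.87 to 9.94 and 7.49 to 8.56. Glioma 37, with 8.42 for the shared reactive genes, also lay in that range. Glioma 48, on the Gfap-low side, had 9.94 for mature astrocyte genes, above 4 of the 6 Gfap-high gliomas. For the STAT3 and gp130 list glioma 64 had 6.73, inside the Gfap-low range of 6.58 to 6.86, and the other 5 Gfap-high gliomas had 6.93 to 7.99, above it. Within R172H gliomas alone (2 against 5) the shared reactive list had a median of 1.31, the astrocyte list 0.58 and the microglia list 1.14, and the cell cycle list had 0.24, opposite to its sign with all 12 gliomas. With genotype as a term the medians were 1.12, 0.75, 0.74 and -0.35, and Ret had a difference of 2.86. A fit of the sides within null gliomas, with 4 against 1, was not run.

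Genes of some chromosomes were low or high together in single tumors. On chromosome 12, 42 of 622 genes (6.75%) were higher in Gfap-high gliomas at an unadjusted p under 0.05 and 1 was lower, against 3.76% higher and 4.38% lower over all genes. On chromosome 1, 67 of 1057 genes (6.34%) were higher and 13 lower. Over the 340 brighter genes of chromosome 12, the median deviation from the mean of the 19 tumors was -0.01 to 0.18 in the Gfap-high gliomas. On the Gfap-low side it was -0.58 in glioma 46, -0.40 in glioma 39, -0.27 in glioma 52 and 0.03 to 0.09 in the others. Chromosome 1 genes were at -0.50 in glioma 39 and chromosome 8 genes at 0.43 in glioma 54, both on the Gfap-low side, and chromosome 13 genes at 0.63 in glioma 64 on the Gfap-high side. On chromosome 8, 21 of 932 genes (2.25%) were higher and 66 (7.08%) lower at an unadjusted p under 0.05, against the same shares of all genes. Chromosome 11, which carries Gfap, had 0.25 in glioma 54 and -0.09 to 0.11 in the other 11 gliomas of the sides. The part of these shifts in the differences of single genes was not tested.

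**Figure D5:**
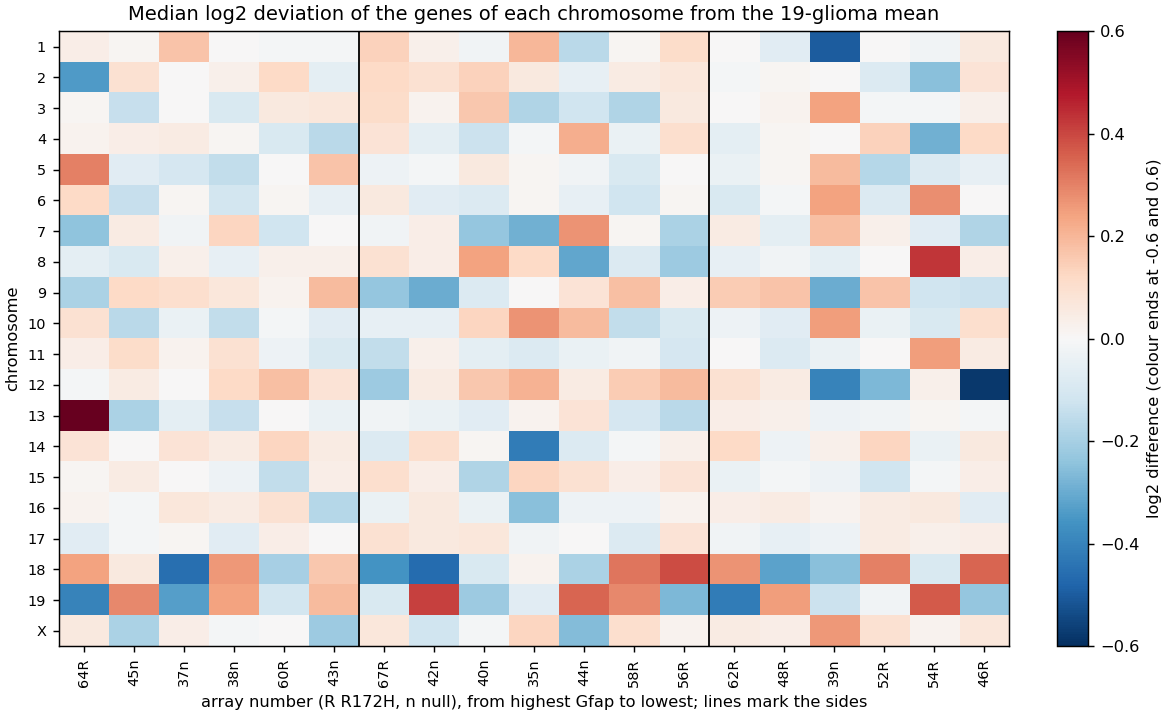
Median log2 deviation of the brighter genes of each chromosome (rows) from their mean over the 19 gliomas, by tumor (columns, from highest to lowest Gfap). Chromosome 12 is at -0.58, -0.40 and -0.27 in gliomas 46, 39 and 52 on the Gfap-low side, and chromosome 13 at 0.63 in glioma 64 on the Gfap-high side.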

How the data were processed

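Total RNA of the 40 samples was hybridised to Affymetrix Mouse Genome 430 2.0 arrays. The authors deposited log2 signals from robust multi-array averaging, which corrects background and equalises the distributions of arrays before it summarises probes. No log base is stated, and the range of 2.0 to 14.47 fits log2. Of 45101 probe sets, 64 controls, 932 naming several genes and 9160 not named in the annotation used were left out. The other 34945 gave 18193 genes, and a gene was read from its brightest probe set by mean over all arrays. Symbols and chromosomes came from RefSeq GRCm38.p6, matched for 34741 probe sets. Differences (Gfap-high minus Gfap-low) and slopes were fitted with lmFit and eBayes in limma 3.58.1 (R 4.3.3), with Benjamini-Hochberg adjustment over 18192 genes and no filter. The fit was tested on simulated data. Tables and figures were made in Python 3.11.15.

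Ranked gliomas are the samples titled glioma, except arrays 36, 41 and 50. Gene lists were written from general knowledge, and the members, lists and tests were chosen with earlier results of these data known. Named genes are, since none passed, the 12 in each direction with the lowest p among genes whose sides do not overlap, from each list the 3 genes that differed most, and a set of astrocyte and glioma genes. Other list members, and the genes of the slope, were named after their values were seen. Alternatives changed the probe sets, filter, scaling, samples, number of tumors a side, covariate and variance model, and left out each tumor in turn.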

Additional observations from a re-analysis of the deposited data

Results flagged for a closer look

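In 27 of 332 groups of 6 tumors examined (8.13%), 1 tumor stood apart from the other 5 by Dixon's criterion, which chance meets in about 1 in 20 groups. On the Gfap-high side, glioma 45 was high in Gem at 7.65 (next 7.28) and Il6 at 8.17 (next 5.17), and low in the mitotic kinesins Kif11 at 3.77 (next 6.99) and Kif20a at 4.43 (next 7.23). Glioma 64 was high in Pard3b at 6.70 (next 6.15) and in the lysophosphatidic acid receptor gene Lpar1 at 10.08 (next 8.61), and low in Kank2 at 6.16, Mt3 at 10.05 and Vim at 11.87. Glioma 37 was low in the chemokine gene Cxcl10 at 7.47 (next 10.08) and high in Gzmb, a granzyme gene, at 5.28, and glioma 38 was low in the growth factor gene Igf2 at 8.07 (next 12.34).

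On the Gfap-low side, glioma 54 was low in S100b at 7.57 (next 11.2), in the microglia genes P2ry12 at 5.43 and Tmem119 at 5.07, and in Smad7, an inhibitor of TGF-beta signalling, at 5.74. Glioma 39 was high in Spry3 at 7.84, Tgm1 at 6.23 and Thbs2 at 5.95, and low in the mean of the metallothionein list at 9.45. Glioma 48 was high in the oligodendrocyte gene Ermn at 7.93 (next 4.93) and in the mean of the ependyma list at 5.01, and low in Mki67 at 8.49 (next 9.89). Glioma 52 was high in S100pbp at 9.33 and low in Vim at 11.15, glioma 46 was low in the cilium gene Ccdc39 at 3.70, and glioma 62 was low in the mean of the glial regulator list at 8.62.

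The slope on Gfap differed between the genotypes for 2 genes in a limma interaction term over 10 R172H and 9 null gliomas. In that term 1567 of 18192 genes had an unadjusted p under 0.05. Gpr149, an orphan receptor gene, had slopes of 0.12 in R172H and -1.45 in null gliomas, a difference of 1.57 (adjusted p = 0.0465). It was dim, with medians of 3.94 in R172H and 3.97 in null gliomas, below the lowest array median of 5.24. Its null values ran from 3.09 to 7.34. Zfp280b, a zinc finger gene, had slopes of 0.02 in R172H and -0.50 in null gliomas, a difference of 0.52 (adjusted p = 0.0465). Its values were 7.28 to 7.81 in R172H gliomas and 7.22 to 8.81 in null gliomas, with a null median of 7.47. The part of single null gliomas in these slopes was not tested.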

How the results depend on the processing

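No gene passed between the sides in either direction except with 40 arrays in the fit (3 higher, with Osmr at an adjusted p of 0.0432), all 22 gliomas ranked (3 higher, with Ret at 0.0335) and the slope in place of sides (9 higher and 9 lower). Leaving out each tumor gave 0 calls, and 475 to 1137 genes higher and 442 to 1159 lower at an unadjusted p under 0.05. The counts of 9 positive and 9 negative slopes past the threshold became 0 and 0 without gliomas 46, 52 and 54 and with genotype as a term, although the slope of Osmr was 1.02 and 0.73 in these fits, against 0.70. Over single omissions the counts ranged between 0 (without glioma 46) and 14 (without glioma 64) positive and between 0 (without glioma 46) and 17 (without glioma 58) negative. The cause was not tested. With 6 tumors a side, and the 2 sides unequal in genotype, the number of arrays limits precision. No paired analysis was possible because the replicate numbers do not tie tumors of the sides to each other, and a fit within null gliomas (4 against 1) was not run.

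Of 3466 values of named genes under alternatives, 67 changed sign and 3 came to pass the threshold. Within R172H gliomas these were Gbp2 (0.00), Dll3 (0.01), Nrxn3 (-0.14), S100a9 (-0.19), S100a8 (-0.42), Rarres2 (-0.29), Alas2 (-0.41), Kif11 (0.22), Mki67 (0.62), Nfia (0.40), Vim (-0.02), S100b (0.40) and Olig2 (0.04). With all 22 gliomas ranked they were Lhfpl3 (0.41), Neurod2 (-0.03), S100b (0.99), Olig2 (0.71) and Pdgfra (0.06), and with genotype as a term Rarres2 (-0.30), Alas2 (-0.12) and Nfia (0.23). Without gliomas 38, 45 and 58 (58 being on neither side) they were Rarres2 (-0.17), Hba-a2 (0.16), Hba-a1 (0.00), Arc (0.00), Nfia (0.31) and S100b (0.14). With 8 tumors a side they were Aqp1 (-0.05), Hba-a2 (0.06), Alas2 (-0.06), Xist (0.62) and S100b (0.24), and with 5 a side S100b (0.29). Cyclic loess turned Nfia (0.10) and S100b (0.04), quality weights Nfia (0.06) and Sox9 (0.04), the mean of probe sets Nfia (0.15), and sides by another Gfap probe set, chosen after seeing the data like the omissions from the slope, Hba-a1 (-0.08) and S100b (0.63). Over omissions of 1 tumor, Hba-a2 ranged from -0.30 to 0.02, Alas2 from -0.29 to 0.46, Hba-a1 from -0.03 to 0.08, Xist from -1.34 to 0.42, Nfia from -0.17 to 0.21, Sox9 from -0.59 to 0.25, Vim from -0.04 to 0.45 and S100b from -0.73 to 0.13.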
